A study of Caenorhabditis elegans with 2 samples.

Results

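The 7 genes ced-1, ced-2, ced-5, ced-6, ced-7, ced-10 and ced-12 of the nematode Caenorhabditis elegans are needed for living cells to engulf cells that have died. They are 7 of 19973 annotated protein-coding genes on the nuclear chromosomes. The set is a pathway list, but it was chosen from measured values in that ced-5 lies beside a region of rank 14 in the authors' list of reproducible binding sites. The values of ced-5 are therefore a description with no test, and the other 6 genes show how the rest of the pathway compared with it. By the same reading, 1 of the 7 genes held a reproducible site, beside 1.31% of all protein-coding genes. At that share, no reproducible site is what most genes show. The other 6 held no region or weak regions that a single replicate listed. At ced-12 there was also a pair below the median signal of both replicate lists.

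Engulfment in the worm runs through 2 branches that meet at the cytoskeleton. In the receptor branch, CED-1 is a transmembrane receptor on the engulfing cell, CED-7 is an ABC transporter, and CED-6 is an adaptor with a phosphotyrosine-binding domain that acts inside the cell with CED-1. In the Rac branch, CED-2 is an adaptor of the CrkII type, and CED-5 and CED-12 (the worm counterparts of DOCK180 and ELMO) together form the exchange factor that activates the Rac GTPase CED-10. CED-10 then drives the actin rearrangement that closes the engulfing cell around the corpse.

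Chromatin immunoprecipitation with sequencing mapped the genomic regions bound by the protein Y116A8C.19. The study held 2 biological replicates of 1 group, without a comparison condition. Both came from strain OP532, with genotype unc-119(tm4063) III; wgIs532, so the unc-119 allele was shared by all worms and there was no sample without the transgene among those used here. The transgene carried Y116A8C.19 with a GFP-FLAG tag at its C-terminal end, and the precipitating antibody was against GFP, although the antibody field of the labels names Y116A8C.19 itself. Worms were hermaphrodite L1 larvae taken 6 hours after release from starvation arrest and used whole. A region's signal therefore cannot tell binding in many cells from stronger binding in few. What drives the transgene is not stated in the labels.

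The regions came from 4 lists in genome build ce11 (WBcel235). The thresholded list held 198 regions that passed the authors' cut on the irreproducible discovery rate (IDR), and these were the 198 strongest of the 2689 regions in the pooled list. The list of replicate 1 held 22595 regions and that of replicate 2 held 22356 on nuclear chromosomes, with background included by design. Signal is the authors' value for a region, on a scale that the labels do not state, and rank 1 is the highest signal of a list. Signals are compared only within a list, apart from a ratio between the replicates that is set beside the same ratio at other regions. A region was given to a gene when its summit lay in a promoter window, 1000 bp before to 200 bp after the annotated 5′ end, or inside the gene. Distances below are from that 5′ end, and negative distances are upstream. Because trans-splicing removes the first part of many worm transcripts, transcription may begin before an annotated 5′ end.

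The ced-5 region carries the finding, so its sequence comes first. It lies on chromosome IV from 10483722 to 10484111, wholly in the 452 bp between the divergent 5′ ends of ced-5 and F01D4.5 except for its last bases, which reach the start of ced-5. The 299 bases centred on its summit, chrIV:10483768-10484066 on the forward strand, are shown 5′ to 3′ with matches to 2 short elements in capitals. They overlap no annotated exon. Below it, the 151 bases at the summits of gly-5 (chrIII:13187883-13188033, in an intron) and mppb-1 (chrIV:9074340-9074490, upstream of the gene) are shown because their replicate signals were among those most like the ced-5 region.
ced-5: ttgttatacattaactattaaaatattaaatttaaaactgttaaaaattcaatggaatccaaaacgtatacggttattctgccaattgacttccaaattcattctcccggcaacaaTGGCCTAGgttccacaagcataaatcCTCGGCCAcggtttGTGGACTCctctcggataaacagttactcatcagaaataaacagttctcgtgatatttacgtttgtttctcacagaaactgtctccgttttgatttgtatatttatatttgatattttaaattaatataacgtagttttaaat
gly-5: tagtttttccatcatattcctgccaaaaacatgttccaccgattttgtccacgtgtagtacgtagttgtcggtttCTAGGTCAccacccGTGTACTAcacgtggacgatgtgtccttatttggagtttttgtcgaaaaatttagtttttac
mppb-1: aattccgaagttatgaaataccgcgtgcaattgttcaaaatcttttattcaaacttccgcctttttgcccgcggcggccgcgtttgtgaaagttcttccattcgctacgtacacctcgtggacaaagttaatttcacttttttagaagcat

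The elements are GTGTACTC (element A) and CTAGGCCA (element B). They were read from the 99 thresholded regions of odd rank, as the 8-mer with the largest difference in share between summit windows of 151 bases and flanking windows 500 bp to either side, and the next that shared no 5-mer with it. Both strands were searched and up to 1 mismatch was allowed. The ced-5 region has an even rank and took no part in that choice. Its window held 3 matches. An exact copy of element B lay on the reverse strand, 26 to 33 bases to the left of the summit. A copy of B with 1 mismatch, CTCGGCCA, ended at the summit itself. A copy of A with 1 mismatch, GTGGACTC, began 7 bases to its right.

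Matches to these elements were frequent under reproducible sites and rare beside them. Among the 99 regions of even rank, 33.3% held A and 37.4% held B, and 19 of 99 (19.2%) held both. In 195 flanks of those regions the shares were 5.64% and 4.62%, and none held both. In windows of 151 bases placed at the ced-5 distance of every protein-coding gene, A lay in 6.44%, B in 4.41% and both in 0.491%. With no mismatch these fell to 0.501% for A and 0.776% for B. Matches with up to 1 mismatch were more frequent in the 25 strongest thresholded regions, which include ced-5. There A lay in 68%, B in 64%, both in 40% and either in 92%. Holding both elements was therefore less unusual among the strongest regions than over all even ranks. Some of these 25 have odd ranks and so helped to choose the elements, which makes their shares not independent of that choice. Of the 3 regions most like ced-5 in signal, gly-5 held both elements, C53B4.3 held A as GTGTAGTC and no B, and mppb-1 held neither. A match is a description of the letters and not a measured binding site.

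In the ced-5 window, B and A stood on the same strand with 6 bases between them. The gly-5 window had the same layout, B as CTAGGTCA and A as GTGTACTA, again 6 bases apart. This layout was noticed in these sequences and then counted in all windows. Of the other 98 regions of even rank, 18 held both elements without overlap, 10 had B followed by A on the same strand at any gap, and 9 of these 10 had a gap of 6 or 7 bases. A gap of 6, as first noticed, was found in 4 of these 98. A gap of 7 was not seen where the layout was noticed. The count at 6 or 7 therefore rests on these same regions and is only a description. Among the 99 regions of odd rank the same counts were 21, 11 and 9, with 4 at a gap of 6. The gly-5 region, where the layout was noticed, is 1 of these 4, so the odd count is not independent of it. Of 44484 replicate regions that overlap no thresholded region, 7 (0.0157%) had the layout with a gap of 6 or 7, and 3 with a gap of 6. The lists of both replicates were put together without merging, so a place that both listed is counted for each. Of the windows at the ced-5 distance of all 19973 protein-coding genes, 17 (0.0851%) had the layout at a gap of 6 or 7. A gap of 6 was found in 10 (0.0501%), and the ced-5 window is among them. Windows of genes at other thresholded regions were not left out of these counts, so they are not a background without sites.

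**Figure D1:**
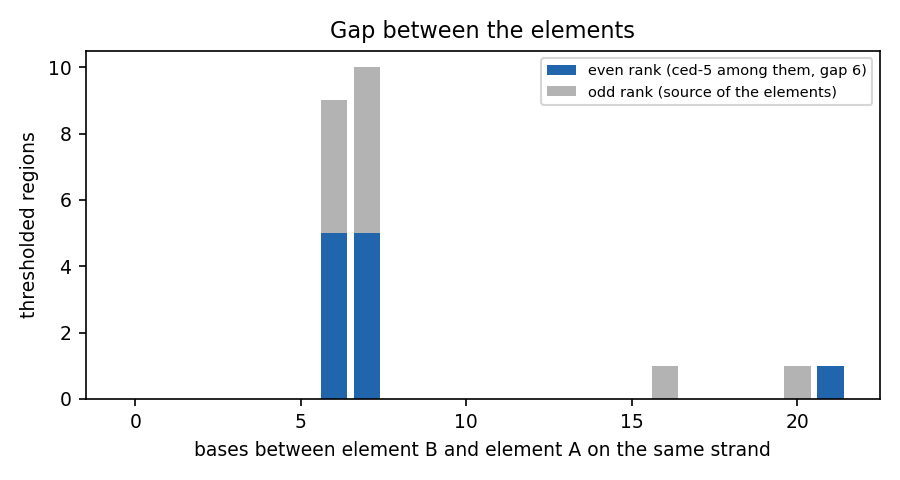
Number of thresholded regions (y axis, stacked) by the number of bases between element B and element A on the same strand (x axis), in windows of 151 bases at the summits, with regions of even rank in blue and of odd rank in grey. Gaps of 6 and 7 bases hold nearly all regions with this layout, and the ced-5 region is counted at 6.

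At ced-5 itself the signal was high in both replicates. The gene lies on chromosome IV from 10484110 to 10492913 on the forward strand and has 1 annotated transcript. Its region had a signal of 84.9 and rank 22 in replicate 1 and a signal of 60.2 and rank 14 in replicate 2. In the pooled and thresholded lists the signal was 150.7 and the rank 14. These values were 7.07 times the median signal of the list of replicate 1, 6.32 times that of replicate 2 and 5.36 times that of the pooled list. The region is in the top 0.0974% of the list of replicate 1 and the top 0.0626% of that of replicate 2. It was chosen for its rank in the list derived from both replicates, so these values are not independent support. Its −log10 q-value was the highest any region had in each list, 2.71 and 2.20 in the replicates, a value shared with other regions there (257 in all in replicate 1 and 78 in replicate 2).

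The position repeated closely. The summit lay at −194 bp from the ced-5 5′ end in replicate 1, at −196 bp in replicate 2 and at −193 bp in the pooled list. The replicate summits were thus 2 bp apart. Across the 196 thresholded regions listed in both replicates the median gap between summits was 19 bp, and 19 of the 196, with ced-5 among them, were 2 bp apart or closer. The ratio of signal in replicate 1 to that in replicate 2 was 1.41 at ced-5, inside the middle range of 1.34 to 2.13 (quartiles, median 1.69) over those regions. The region had the common width of 390 bp in the thresholded list. Of the 25 strongest regions 17 were narrower and 8, with ced-5 among them, had this width.

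The other regions at ced-5 were weak. Replicate 1 listed 1 in an intron at 5286 bp (signal 10.8, rank 15613). Replicate 2 listed 1 in a coding exon at 7134 bp (signal 9.46, rank 11442) and 1 at −903 bp (signal 7.91, rank 19264). All 3 were below the median of their list, and no place was repeated between the replicates.

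**Figure D2:**
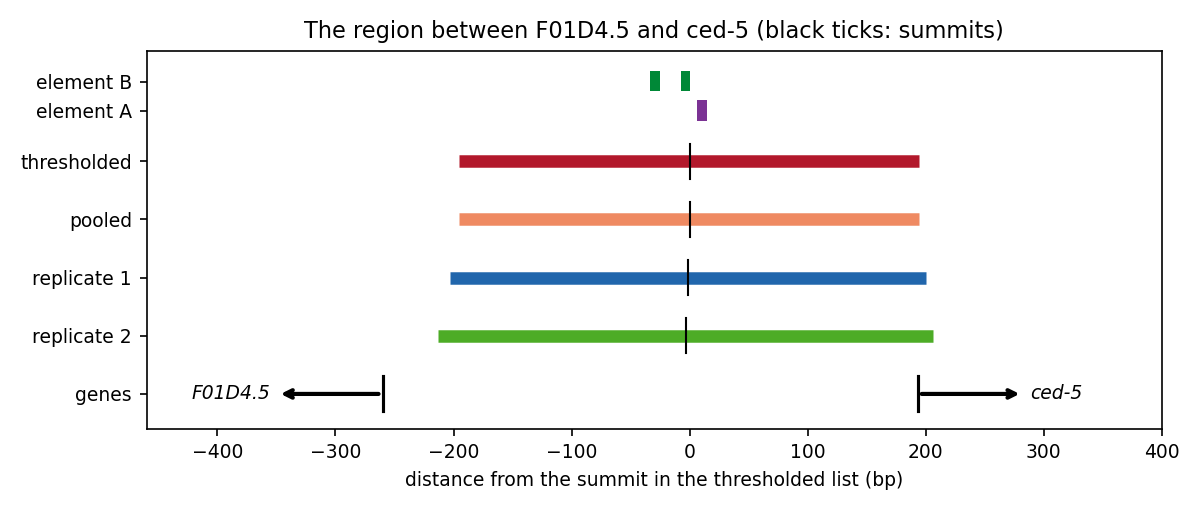
Extent of the region in each of the 4 lists (bars, with black ticks at the summits), matches to elements A and B (boxes) and the 5′ ends of F01D4.5 and ced-5 (arrows), against distance from the summit in the thresholded list in bp (x axis). The 4 summits lie within 3 bp of each other between the divergent 5′ ends, and all 3 matches lie within 33 bp of the summit.

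The ced-5 site has a second candidate gene. The summit lay at −260 bp from the 5′ end of F01D4.5, a protein-coding gene on the reverse strand from 10482624 to 10483657, with no other annotated gene in the gap. Both 5′ ends are close to the summit for a region 390 bp wide, so binding at ced-5 cannot be told apart from binding at F01D4.5. Of the 198 thresholded regions, 61 (30.8%) lay upstream of protein-coding genes on both strands in this way, and 3 of these were stronger than the ced-5 region. On chromosome IV the ced-5 region was the second strongest of 32 thresholded regions.

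The thresholded regions most like it in replicate signal were those nearest the 5′ ends of gly-5, C53B4.3 and mppb-1. Likeness was the distance between log2 signals over the 2 replicates, among regions within 1000 bp of a protein-coding 5′ end. The gly-5 region (rank 17), 568 bp inside a gene for a glycosyltransferase, had signals of 84.6 and 59.5 in replicates 1 and 2, a distance of 0.018. The C53B4.3 region (rank 23, at −39 bp) had 78.9 and 58.1, a distance of 0.12. The mppb-1 region (rank 19, at −258 bp), upstream of a gene for a subunit of the mitochondrial processing peptidase, had 78.2 and 60.2, also a distance of 0.12. All 3 were picked for this closeness, so it says nothing further about ced-5. The mppb-1 region had the same signal as ced-5 in replicate 2 to the digits given.

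**Figure D3:**
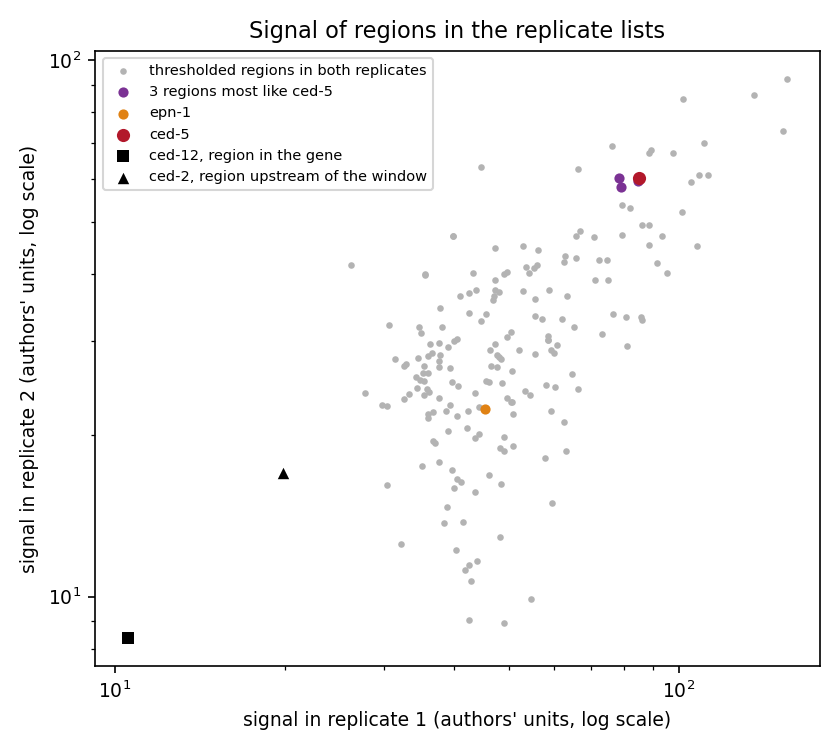
Signal in replicate 1 (x axis) against replicate 2 (y axis), both in the authors' units on log scales, for the thresholded regions listed in both replicates (grey) and the regions named in the text. The ced-5 region (84.9 and 60.2) sits among the strong regions, while the ced-12 region (10.6 and 8.36) and the region upstream of the ced-2 window (19.9 and 17.0) lie to the left of every grey point.

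None of the other 6 members had a region in the thresholded or the pooled list. By the same rule 1.31% of all protein-coding genes had a thresholded region and 11.3% had a pooled region, against 1 of the 7 members in each, which is ced-5. The rule of choice used these lists, so nothing is read from that count. The last region inside the authors' threshold had a signal of 55.04 and the first outside it, at rank 199, had 54.85. The ced-5 signal was far from this edge. From the 5′ ends of the other 6 genes the nearest thresholded region lay between 83.3 kb (ced-6) and 493.7 kb (ced-1) away, and the nearest pooled region between 1.32 kb (ced-2) and 103.7 kb (ced-10). The medians over all protein-coding genes were 196.4 kb and 13.6 kb. For thresholded regions ced-6, ced-7 (114.5 kb) and ced-2 (148.4 kb) were nearer than the median, and ced-1, ced-10 and ced-12 were farther. For pooled regions ced-2, ced-12 (2.34 kb), ced-6 (3.75 kb) and ced-7 (5.98 kb) were nearer, and ced-1 and ced-10 were farther.

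The replicate lists are long, and a region in them means little by itself. In replicate 1, 4 of the 7 genes (ced-1, ced-5, ced-6 and ced-12) held a region, where 56.5% of all protein-coding genes did. In replicate 2, 5 of 7 (ced-1, ced-5, ced-7, ced-10 and ced-12) held one, where 55.1% of all genes did. Both shares are near the background. Within promoter windows alone the counts were 2 in replicate 1 (ced-5 and ced-6) against 30.1%, and 4 in replicate 2 (ced-1, ced-5, ced-10 and ced-12) against 29% of genes. Regions of both replicates that overlapped each other were found at 2 genes, ced-5 and ced-12, where 23% of all genes had such a pair. Each replicate list held over 2 regions per 10 kb of genome (2.25 and 2.23), so a longer gene has more room to hold a region whatever the binding.

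**Figure D4:**
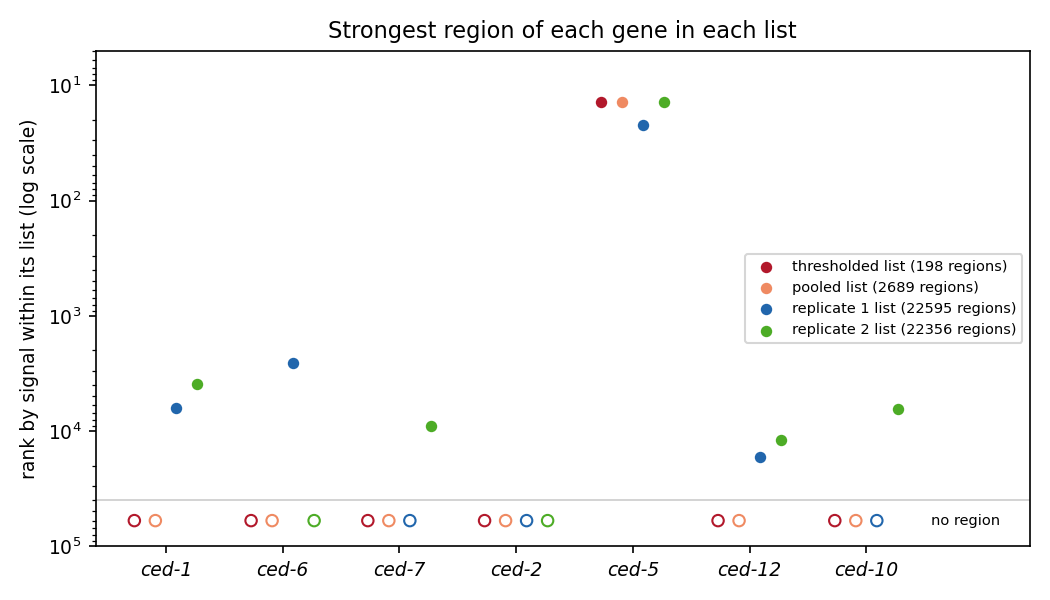
Rank by signal (y axis, log scale, highest signal at the top) of the strongest region of each gene in each of the 4 lists, with open circles where a list has no region for the gene. The ced-5 points lie between rank 14 and rank 22, and no point of another gene is above rank 2562.

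In the receptor branch no region stood out in either replicate. The receptor gene ced-1, on chromosome I from 11851554 to 11868105, is the longest of the 7 genes at 16552 bp. It held 1 region in replicate 1 and 6 in replicate 2. The strongest were at 7638 bp in a coding exon (signal 13.989, rank 6329, replicate 1) and at 3400 bp in a coding exon (signal 12.4, rank 3876, replicate 2), so the replicates did not point to the same place. The region nearest the ced-1 5′ end, at 70 bp in replicate 2, had a signal of 9.61, close to the list's median of 9.53. The nearest pooled region was 37.8 kb away and the nearest thresholded region 493.7 kb away.

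The adaptor gene ced-6 (chromosome III, 5595771 to 5598061) had regions in replicate 1 only. Its stronger region had a signal of 17.0 and rank 2562 and lay in a coding exon at 1291 bp. That is the best rank of any gene here other than ced-5, and it is 1.41 times the list's median. The other lay at −437 bp with a signal of 11.4, below the list's median of 12.015, and shared its place with the non-coding RNA gene F56D2.9 at −693 bp. The transporter gene ced-7 (chromosome III, 9570390 to 9580089) had 1 region, in replicate 2 only, with a signal of 10.1 and rank 9115 in a coding exon at 1324 bp. Neither gene thus showed a place that both replicates listed.

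In the Rac branch no gene other than ced-5 had a strong region. The GTPase gene ced-10 (chromosome IV, 3506328 to 3509527) had 2 regions in replicate 2 and none in replicate 1. The stronger, at 501 bp in an intron, had a signal of 11.1 and rank 6439 and lay 67 bp after the 5′ end of the non-coding RNA gene C09G12.18. The weaker, at −544 bp, had a signal of 7.62 and rank 20994 and lay inside tsg-101, the gene that ends 103 bp before ced-10 on the same strand. Upstream sequence of ced-10 is therefore mostly another gene, unlike the divergent gap at ced-5.

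CED-12 works in a complex with CED-5, and its gene showed no site like that of ced-5. The ced-12 gene (chromosome I, 10222881 to 10227009) is the only other member with overlapping regions in both replicates. They lay in a coding exon near the end of the gene, at 3421 bp in replicate 1 and 3443 bp in replicate 2, with signals of 10.6 and 8.36. These ranked 16703 and 16559, below the median of each list, and their summits were 22 bp apart. They were also upstream of the neighbouring gene Y106G6E.4, at −810 and −788 bp. A further region in replicate 2 lay at 162 bp in an intron with a signal of 9.32 and rank 12040. The 5′ end of ced-12 overlaps the gene csnk-1, on the same strand, by 24 bp. A pooled region inside csnk-1, at −2336 bp from ced-12 and so outside its window, had a signal of 26.8 and rank 1745, below the list's median of 28.1.

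The adaptor gene ced-2 (chromosome IV, 1597318 to 1601621) was the only member with no region in any of the 4 lists under the rule. A region lay just outside its window, at −1319 bp in the pooled list, 319 bp beyond the limit. That region had a signal of 32.7 and rank 658 in the pooled list, 19.9 and rank 1212 in replicate 1 and 17.0 and rank 687 in replicate 2. It ranked higher in both replicates than any region assigned to the other 5 genes without a reproducible site. Its summit lay 175 bp upstream of npp-8, the divergent neighbour that encodes a protein of the nuclear pore, and ced-2 was much farther from it. It was not in the thresholded list.

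**Figure D5:**
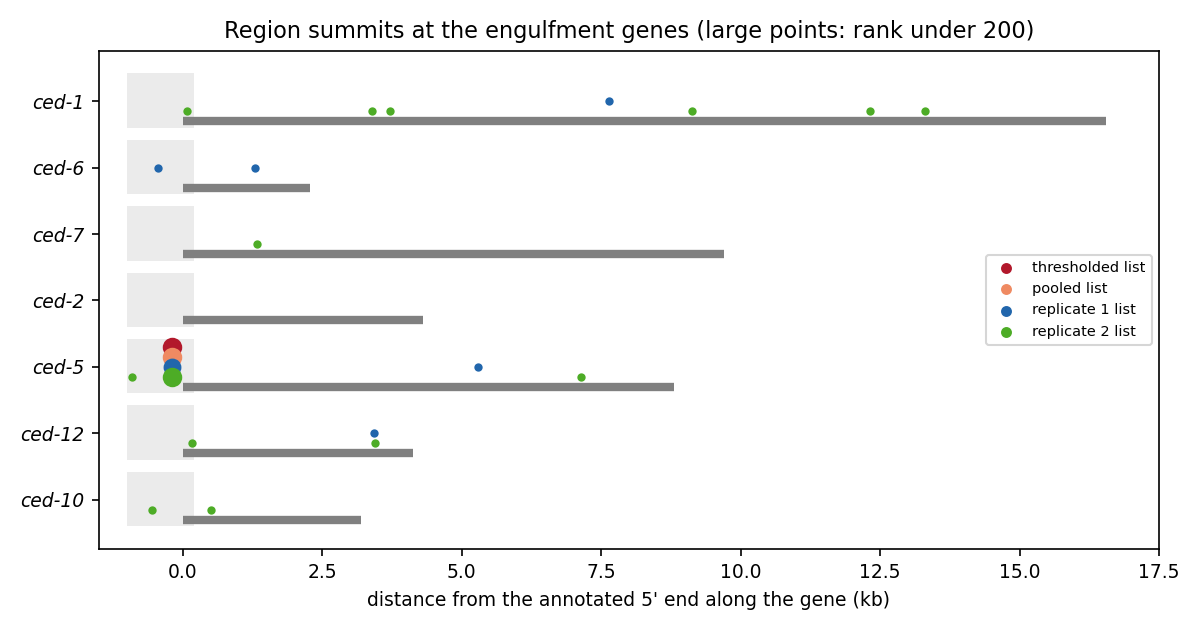
Summits of regions (points, coloured by list) at each gene against distance from its annotated 5′ end along the gene in kb (x axis), with the gene as a grey bar and the promoter window (1000 bp before to 200 bp after) shaded. Large points have a rank under 200 and occur at ced-5 alone, while the small points of the other genes are scattered along their length.

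The elements were also searched for in the promoters of the other genes. In windows of 151 bases centred 193 bp upstream of the 5′ end, none of the other 6 genes held a match to A or B with up to 1 mismatch. Of the same windows of all protein-coding genes 10.4% held either element and 0.491% held both, so no match is what most genes show. Over the whole promoter window, 5 of them held none, and ced-6 held 3 matches to A and 1 to B, none exact. Over all protein-coding genes 40.004% of such windows held A and 26.2% held B with up to 1 mismatch, and 10.9% held both, so the ced-6 matches are no unusual content. With no mismatch the shares were 3.02% and 3.48%. GC content of the summit window was 42.4% at ced-5, equal to the median over thresholded regions, and lower in the matched windows of all 6 other genes. It was 14.6% at ced-1, the lowest of the 7, and 29.1% at ced-2, 29.8% at ced-10, 30.5% at ced-12, 36.4% at ced-7 and 37.1% at ced-6. GC content of such windows over all protein-coding genes was not computed, so how usual these values are is not known. The part of base composition in the absence of matches was not tested.

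The matched windows of ced-2, ced-6 and ced-7, which overlap no annotated exon, are printed on the strand of the gene for comparison with the ced-5 sequence. They come from chrIV:1597050-1597200 (forward), chrIII:5595503-5595653 (forward) and chrIII:9580207-9580357 (reverse). No letters are in capitals because no element matched.
ced-2: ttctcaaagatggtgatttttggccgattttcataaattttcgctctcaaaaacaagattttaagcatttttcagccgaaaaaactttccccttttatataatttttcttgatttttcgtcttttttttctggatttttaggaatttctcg
ced-6: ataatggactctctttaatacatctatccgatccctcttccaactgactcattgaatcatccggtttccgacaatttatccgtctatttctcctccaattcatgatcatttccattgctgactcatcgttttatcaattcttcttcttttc
ced-7: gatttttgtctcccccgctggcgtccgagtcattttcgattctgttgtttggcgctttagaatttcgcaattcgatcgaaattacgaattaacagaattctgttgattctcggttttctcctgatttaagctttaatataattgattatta

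Other genes of cell death and corpse removal were taken from lists written from textbook knowledge. Of 15 genes of the core death pathway, such as the caspase gene ced-3 and its regulators ced-4, ced-9 and egl-1, none had a thresholded or pooled region. Of 25 genes that act with the engulfment pathways, 1 (4%) had a thresholded region and 6 (24%) a pooled region, beside 1.31% and 11.3% of all protein-coding genes. Of 32 genes that mature and degrade the phagosome, none had a thresholded region and 4 (12.5%) had a pooled region. With 1.31% of all genes in the thresholded list, lists of this size would hold about as few at the background share, so nothing is read from these counts.

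The gene with a thresholded region was epn-1, which encodes an epsin, an adaptor of endocytosis. Its region had a signal of 62.8 and rank 144, with signals of 45.3 (rank 115) in replicate 1 and 22.3 (rank 209) in replicate 2. The summit lay at −512 bp from the epn-1 5′ end and also beside the non-coding RNA genes T04C10.7, T04C10.8 and T04C10.9, of which T04C10.8 and T04C10.9 had their 5′ ends 45 and 99 bp from it. It was weaker than the ced-5 region in both replicates.

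The next among engulfment partners were pooled regions that did not pass the authors' threshold. The wve-1 region, upstream of a subunit gene of the WAVE actin regulator, had a signal of 38.3 and rank 399 and lay at −660 bp from wve-1 and −589 bp from R06C1.4. The srgp-1 region, inside the gene for a GTPase-activating protein of the srGAP family, had 33.2 and rank 624. The strongest unc-73 region, in the gene for a Rac exchange factor of the Trio type, had 27.4 and rank 1538 and lay 25517 bp inside the gene. All of these signals were below the 55.04 of the weakest thresholded region.

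Among phagosome genes the Rab GTPase genes unc-108 and rab-7 had pooled regions with signals of 31.6 (rank 757) and 30.5 (rank 910). The vps-33.1 region, at a gene of the tethering complex of late endosomes, had 31.3 (rank 794), and the ccz-1 region, at a gene for part of the activator of RAB-7, had 25.5 (rank 2233). The stronger unc-108 region, at 1572 bp, and the ccz-1 region overlapped a region of replicate 1 but none of replicate 2. A second unc-108 region, at −172 bp (signal 30.2, rank 957), overlapped regions of both replicates (ranks 599 and 20931). It was shared with the non-coding RNA gene F53F10.7 at −721 bp. The stronger vps-33.1 region, at −180 bp, was shared with sdz-1 at −408 bp. A second vps-33.1 region, at 1590 bp (signal 26.3, rank 1915), overlapped a region of replicate 1 alone. The rab-7 region at −821 bp lay nearer the gene W03C9.5, at −208 bp, and was also in the window of mex-1. The ccz-1 region, at −127 bp, was shared with the divergent tag-65 at −161 bp. None of these approached the signal at ced-5.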

How the data were processed

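The deposited values are regions from chromatin immunoprecipitation with sequencing of 2 biological replicates. The replicate and pooled lists were called on alignments with a control, and the thresholded list was derived from them by IDR, per the accompanying notes deposited with the samples. The labels and notes do not state the aligner, caller, versions or threshold. Per the file headers and layout, the authors' signal and a deposited −log10 q-value describe each region. No read counts are kept, so depth is unknown and limits what absence from a list can show. The 4 lists in ce11 of the 8 deposited were used.

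Genes came from Ensembl release 115 and sequence from the RefSeq genome, both WBcel235. Summits were placed in promoter windows (1000 bp before to 200 bp after the outermost 5′ end) or inside genes. No test was run: the members and lists were chosen with earlier results of these data known, and counts stand beside the percentage of all protein-coding genes. Of 33 symbols listed for phagosome genes, 32 matched. Named were the members, genes sharing their regions, the 3 regions most like that of ced-5, listed genes with a thresholded region and up to 4 with the strongest pooled regions. Genes beside those pathway regions, and the upstream neighbours of members, were named after their values were seen. Placement and element search were checked on planted data. Alternatives changed the window, the overlap, the list and the replicate. Python 3.11.15, NumPy 2.4.6, pandas 2.3.3 and Matplotlib 3.10.9 were used.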

Additional observations from a re-analysis of the deposited data

How the results depend on the processing

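Of 40 alternative settings over 8 results, 32 kept their value within 1.5 times or within the spread between replicates, and 8 moved. The count of members in the thresholded list stayed at 1 (ced-5) in every alternative, which included narrower and wider windows, the stronger part of the list and the best 198 regions of either replicate alone. The ced-5 gene was chosen for its high rank in this list, so its staying there is not independent support. With a window of 2000 to 500 bp the pooled list gave 2 members, ced-2 and ced-5. With the promoter window only, replicate 1 gave 2 members in place of 4. The ced-5 region ranked 14 to 22 without either replicate, and by −log10 q it was tied with others down to place 228. With no mismatch its window held 1 element match in place of 3. The count of other pathway genes, 1 (epn-1), was 0 with the window of 500 to 100 bp and 0 in the stronger part of the list, and ranged from 0 to 1 without a replicate, epn-1 being absent from the best 198 regions of replicate 2. No paired analysis was possible because there is 1 group.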
